A study of Mus musculus with 8 samples.

Results

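Two-pore leak potassium channels, the K2P family encoded by the Kcnk genes, were examined along the dorsoventral axis of the medial entorhinal cortex (MEC). The 8 members described here are Kcnk1, Kcnk2, Kcnk3, Kcnk4, Kcnk9, Kcnk10, Kcnk12 and Kcnk13. They were chosen by gene symbol from the 38553 genes of the expression table, which lists 14 K2P genes in all. Each K2P subunit carries a pair of pore loops, and a channel is a dimer of subunits. The channels pass potassium at rest with little dependence on voltage, and so contribute to the resting potential and the input resistance of neurons. The members fall into subfamilies. Kcnk1 encodes TWIK1, a channel of small current. Kcnk2, Kcnk10 and Kcnk4 encode TREK1, TREK2 and TRAAK, which open to membrane stretch and to lipids such as arachidonic acid. Kcnk3 and Kcnk9 encode the acid-sensitive channels TASK1 and TASK3. Kcnk13 and Kcnk12 encode THIK1, which is inhibited by halothane and known from microglia, and its relative THIK2.

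RNA was sequenced from dissected dorsal and ventral parts of the right MEC of 13 male C57BL/6JolaHsd mice, all 8 weeks old and untreated as far as the labels say, as 4 dorsal and 4 ventral libraries. The mice formed 4 groups of 3 to 4 animals whose tissue was pooled by region, so that the spread between libraries is a spread between pools. Expression was given as FPKM, the fragments of a gene per kilobase of exon and per unit of mapped fragments in the library, which allows levels of different genes to be set side by side. The libraries are named by their column headers. The headers give the letter V to 2 of the libraries used as dorsal and the letter D to 2 of those used as ventral, so that 4 of the 8 headers go against the region used. Regions were instead taken from the mean FPKM that the authors list for each region, which equal the means over D1, V1, D2 and V2 for dorsal and over D3, V3, D4 and V4 for ventral in 21861 of 21876 genes within 0.1%. Every direction and every call given here rests on this assignment. Under it the header numbers also split by region, with 1 and 2 dorsal and 3 and 4 ventral. Whether a number names a pool of mice is not given. If it does, region and pool cannot be told apart. With the letters of the headers as regions, 0 members and 1 of all genes tested were called by limma, with 721 genes at an unadjusted p under 0.05.

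Depth could be compared only in relative terms, and it lay between 0.901 and 1.24 times the median library in dorsal and between 0.832 and 1.19 times in ventral libraries. A gene was tested if its mean FPKM over the 8 libraries was at least 1 and the authors had not marked it as having too few alignments, which held for 13674 genes. It was called D>V or V>D at a Benjamini-Hochberg adjusted p under 0.05 in limma together with at least 20% more expression in one region. The tissue carried markers of cortical excitatory neurons, with all 5 glutamatergic genes and all 3 genes of entorhinal layer II above the filter. Of 7 oligodendrocyte markers, 7 were D>V, and their summed FPKM ranged from 832 to 1099 in dorsal and from 459 to 602 in ventral libraries. None of 8 astrocyte, 8 microglia, 4 endothelial or 3 oligodendrocyte precursor markers was called.

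The pore of each channel identifies the family. The coding stretch around the first potassium filter is shown for the members, read 5′ to 3′ from the GENCODE M21 transcripts (GRCm38), because it is the part of the channel that defines the family. Capitals mark the 5 filter codons, whose bases vary among the members.
Kcnk1: ctctccACCACAGGCTATGGCcacacg
Kcnk2: atcacaACCATAGGATTTGGAaacatc
Kcnk10: atcacaACCATAGGGTATGGGaatatt
Kcnk4: atcactACCATCGGCTATGGCaatata
Kcnk3: atcaccACCATCGGCTATGGTcatgcg
Kcnk9: atcacaACTATCGGATATGGAcatgct
Kcnk12: gtgtcgACCATAGGTTTCGGCatgaca
Kcnk13: gtttctACCATAGGGTTTGGGatgaca
The fourth of the 5 codons encodes tyrosine in Kcnk1, Kcnk3, Kcnk4, Kcnk9 and Kcnk10 and phenylalanine in Kcnk2, Kcnk12 and Kcnk13. In the second pore this codon encodes leucine in Kcnk1 and phenylalanine in the other 7 members. The first filter of Kcnk1 departs too, as its second codon encodes threonine where the other 7 members have isoleucine. The second filter of Kcnk1 is shown because it is the one with leucine at the fourth codon.
Kcnk1 second pore: ctgagcACCATCGGCCTGGGGgactat
The longest stretch of identical bases between transcripts of a member and of any other K2P gene was 26 bases, between Kcnk12 and Kcnk13. It was followed by 25 bases between Kcnk1 and Kcnk6. Pairs of K2P genes outside the members were not compared.

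Levels differed among the members by more than the difference between regions. Kcnk1 was the highest in every library, and its mean over all libraries lay above that of 88.6% of the genes tested. In dorsal MEC Kcnk2 followed at a 3.73-fold lower level, overlapping with Kcnk9, and then came Kcnk4, Kcnk3 with Kcnk10, which overlapped, and Kcnk12 with Kcnk13, which also overlapped. In ventral MEC the mean of Kcnk9 lay above that of Kcnk2 and the mean of Kcnk10 above those of Kcnk3 and Kcnk4, but Kcnk9 and Kcnk2 overlapped, as did Kcnk10 with Kcnk3 and Kcnk3 with Kcnk4. The members held 99.2% of the summed FPKM of the 14 K2P genes in dorsal and 98.8% in ventral libraries.

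**Figure D1:**
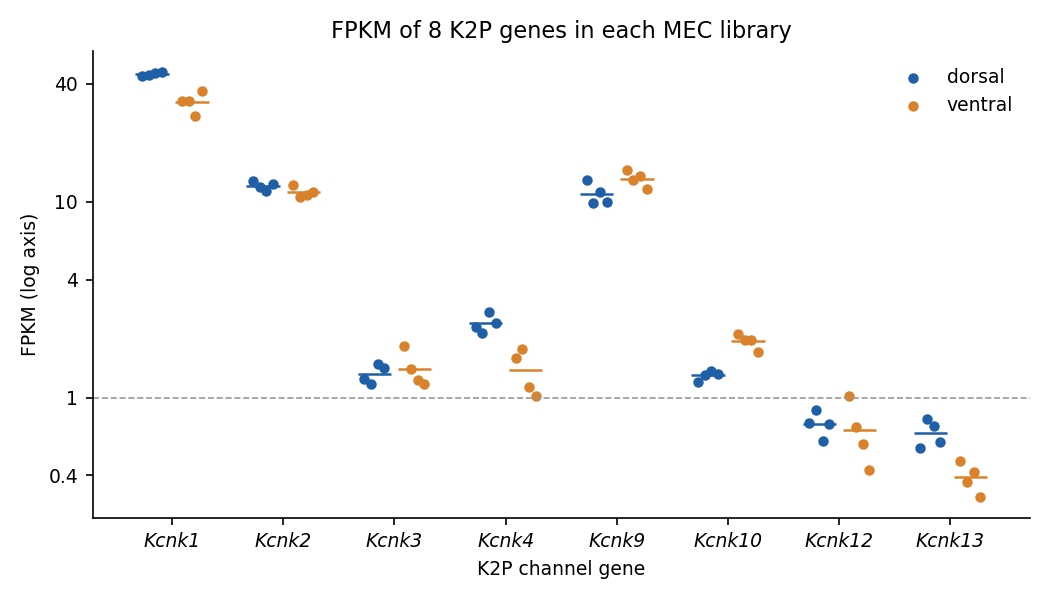
FPKM of each K2P member on a log axis, with 1 point per library, 4 dorsal (blue) and 4 ventral (orange), a bar at the mean of each region and a dashed line at an FPKM of 1. Dorsal and ventral points do not overlap for Kcnk1, Kcnk4, Kcnk10 and Kcnk13, and Kcnk10 is the member of these 4 that is higher in ventral libraries.

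Of the 8 members, 6 passed the filter and were tested. One, Kcnk1, was D>V, where 2.15% of all genes tested were, and 0 were V>D, where 1.45% of all genes were. Dorsal and ventral libraries did not overlap for 3 of the 6, compared with 11.1% of all genes tested. The median log2 difference was -0.03 over the 6 members and -0.01 over all genes tested. At an unadjusted p under 0.05, limma gave 4 of the 6 members (Kcnk1, Kcnk4, Kcnk9 and Kcnk10) and 2191 of the 13674 genes. All genes together gave 294 D>V and 198 V>D calls, and 195 and 201 after rescaling the libraries to one total FPKM, under which Kcnk1 remained the member called.

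Kcnk1 (ENSMUSG00000033998, chr8:125995102-126030683 of GRCm38) encodes TWIK1. Its FPKM was 43.8, 44.5, 45.4 and 46.1 in the dorsal libraries D1, V1, D2 and V2, and 32.6, 32.6, 27.3 and 36.8 in the ventral libraries D3, V3, D4 and V4. The 4 dorsal libraries lay close together and above each ventral one, and the ventral libraries were more spread. The mean fell from 44.9 ± 0.985 in dorsal to 32.4 ± 3.89 in ventral MEC (SD, n = 4 each), which is 72.0% of the dorsal level. The limma difference on the log2(FPKM + 1) scale was -0.47 with a standard error of 0.083 (adjusted p = 0.0133). The call held in each of the 8 fits that left out 1 library, with an adjusted p between 0.00815 and 0.0453. In the 4 libraries whose header letter and region go together, D1, D2, V3 and V4, the ratio kept its direction (log2 ratio -0.36) with an adjusted p of 0.398 in limma, and 0 of 13661 genes were called. The oligodendrocyte markers moved in the same direction as Kcnk1, and their part in its difference was not tested. In pooled tissue of this kind, fewer cells that express a gene and less RNA per cell cannot be told apart.

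The 3 tested genes whose log2(FPKM + 1) most resembled that of Kcnk1 over the 8 libraries were Slc1a1, which encodes a neuronal glutamate transporter, with Pearson r = 0.981, Rbfox1, which encodes a neuronal splicing regulator, with r = 0.981, and Ghitm, which encodes a mitochondrial inner membrane protein, with r = 0.978. Of these, Rbfox1 was D>V, with a log2 ratio of -0.40. The 8 libraries share their region structure with Kcnk1, so that these values describe likeness only.

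**Figure D2:**
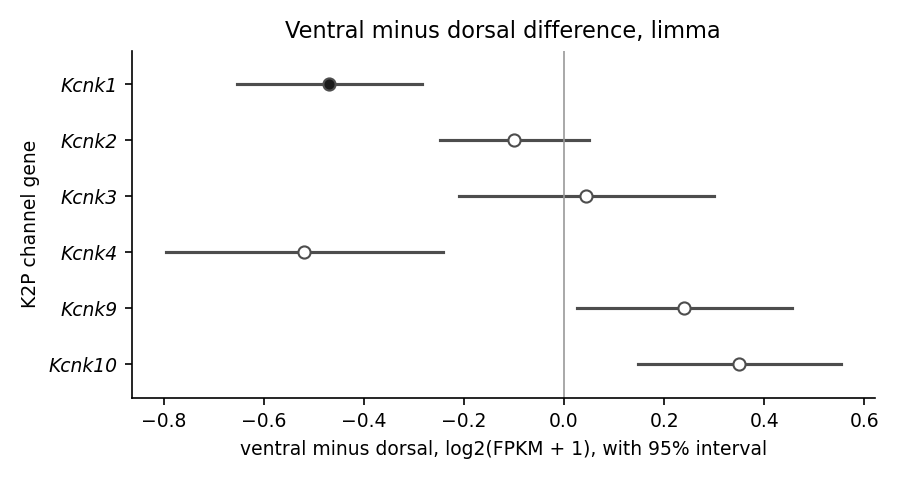
Ventral minus dorsal difference of the 6 tested members on the log2(FPKM + 1) scale from limma, with 95% intervals before adjustment for the number of genes. The filled point is the called member, Kcnk1 at -0.47, and the intervals of Kcnk4, Kcnk9 and Kcnk10 also leave out 0 although their adjusted p did not pass.

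The stretch- and lipid-gated subfamily had no member called. Kcnk4 (ENSMUSG00000024957, chr19:6925710-6934515), which encodes TRAAK, had FPKM of 2.28, 2.14, 2.74 and 2.41 in D1, V1, D2 and V2 and of 1.60, 1.78, 1.14 and 1.02 in D3, V3, D4 and V4. Every dorsal library lay above every ventral one. The means were 2.39 ± 0.255 and 1.38 ± 0.363 (SD, n = 4 each), a log2 ratio of -0.79, and the limma adjusted p of 0.0511 missed the threshold. Its side of the threshold depended on the setting. Kcnk4 was D>V without the FPKM filter (adjusted p = 0.0488), after quantile normalization (0.0463), with sample quality weights (0.0458) and without the ventral library V3 (0.0319). It was not called after rescaling to one total (0.103), with 0.1 added before the logarithm (0.0585) or in the other 7 fits that left out 1 library (0.0824 to 0.133).

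Kcnk10 (ENSMUSG00000033854, chr12:98433994-98577940), which encodes TREK2, had FPKM of 1.21, 1.30, 1.37 and 1.33 in D1, V1, D2 and V2 and of 2.10, 1.96, 1.96 and 1.72 in D3, V3, D4 and V4. Here every ventral library lay above every dorsal one. The means were 1.30 ± 0.0707 and 1.94 ± 0.161 (SD, n = 4 each), a log2 ratio of 0.57, with an adjusted p of 0.0693 in limma. It was called under none of the alternatives tried.

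Kcnk2 (ENSMUSG00000037624, chr1:189207931-189343832), which encodes TREK1, was at 12.7, 11.9, 11.3 and 12.3 FPKM in D1, V1, D2 and V2 and at 12.1, 10.6, 10.9 and 11.2 in D3, V3, D4 and V4. The regions overlapped. The means were 12.1 ± 0.611 and 11.2 ± 0.673 (SD, n = 4 each), and the 95% interval of the limma difference ran from -0.25 to 0.05 (adjusted p = 0.540).

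The exon overlaps of these genes may bear on the values. Strand use in the counting is not given in the sources used here. In GENCODE M21, exons of Kcnk4 overlap those of Catsperz on the same strand, exons of Kcnk2 overlap the antisense gene A430027H14Rik, exons of Kcnk1 overlap the antisense gene Gm45875, and exons of Kcnk3 overlap Gm9899 on the other strand. The authors counted with a different annotation, from Ensembl, and whether it lists the other gene of each pair was not examined. Where it does, fragments of such a pair may have been divided between its genes. The FPKM of these 4 members is uncertain to that extent.

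The promoters of Kcnk1, Kcnk4 and Kcnk10 are shown because these are the tested members whose regions did not overlap. Each is the 250 bases before a RefSeq start site (GRCm38.p6), written 5′ to 3′ on the strand of the gene, and 6 of the 8 members had such a window. Capitals mark GC boxes (GGGCGG, or CCGCCC for the other strand) and E-boxes (CANNTG, which reads the same on both strands).
Kcnk1, chr8:125994852-125995101, plus strand: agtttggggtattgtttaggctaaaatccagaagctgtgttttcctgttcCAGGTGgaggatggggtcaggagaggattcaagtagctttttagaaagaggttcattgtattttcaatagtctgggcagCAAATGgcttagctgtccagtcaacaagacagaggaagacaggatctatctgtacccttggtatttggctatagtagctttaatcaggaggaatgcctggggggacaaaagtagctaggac
Kcnk4, chr19:6934516-6934765, minus strand: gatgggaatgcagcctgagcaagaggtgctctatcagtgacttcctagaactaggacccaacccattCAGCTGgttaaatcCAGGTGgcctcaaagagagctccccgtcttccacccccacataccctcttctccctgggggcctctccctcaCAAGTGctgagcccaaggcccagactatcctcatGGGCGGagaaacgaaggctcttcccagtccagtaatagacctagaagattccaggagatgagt
Kcnk10, chr12:98578214-98578463, minus strand: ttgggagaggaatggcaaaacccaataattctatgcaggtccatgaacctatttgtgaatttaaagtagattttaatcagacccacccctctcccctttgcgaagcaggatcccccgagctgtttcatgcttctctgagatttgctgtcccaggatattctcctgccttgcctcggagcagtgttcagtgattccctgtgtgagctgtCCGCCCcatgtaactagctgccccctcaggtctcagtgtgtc
The window of Kcnk1 held 0 GC boxes and 2 E-boxes, that of Kcnk4 1 GC box and 3 E-boxes, and that of Kcnk10 1 GC box and 0 E-boxes. The start site behind the Kcnk10 window lies 273 bases outside the gene as deposited. RefSeq gives Kcnk10 a second start site, whose window (chr12:98575128-98575377) is not printed and held 0 GC boxes and 0 E-boxes at a GC content of 64.0%. Of all 32851 promoter windows of this length, 32.7% held a GC box and 66.2% an E-box, so that both are common sequences. The GC content of the printed windows of Kcnk1, Kcnk4 and Kcnk10 was 44.4%, 54.8% and 50.0%, against a median of 52.4% over all windows.

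The acid-sensitive subfamily showed no call. Kcnk9 (ENSMUSG00000036760, chr15:72512119-72546279), which encodes TASK3, was at 12.9, 9.85, 11.2 and 9.99 FPKM in D1, V1, D2 and V2 and at 14.5, 12.9, 13.5 and 11.6 in D3, V3, D4 and V4. The ventral libraries tended to be higher, but V4 and V3 lay below the dorsal library D1. The means were 11.0 ± 1.42 and 13.1 ± 1.21 (SD, n = 4 each), a log2 ratio of 0.26 with an adjusted p of 0.252 in limma. In D1, D2, V3 and V4, whose header letter and region go together, the log2 ratio of Kcnk9 was 0.02. Kcnk3 (ENSMUSG00000049265, chr5:30588170-30625270), which encodes TASK1, was at 1.24, 1.17, 1.48 and 1.41 FPKM in D1, V1, D2 and V2 and at 1.82, 1.40, 1.23 and 1.18 in D3, V3, D4 and V4. The regions overlapped, with means of 1.32 ± 0.143 and 1.41 ± 0.293 (SD, n = 4 each), and the 95% interval of the limma difference ran from -0.21 to 0.30 (adjusted p = 0.899).

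The halothane-inhibited subfamily lay below the FPKM filter. Kcnk13 (ENSMUSG00000045404, chr12:99964499-100062682), which encodes THIK1, was at 0.553, 0.779, 0.713 and 0.590 FPKM in D1, V1, D2 and V2 and at 0.477, 0.369, 0.416 and 0.312 in D3, V3, D4 and V4. Every dorsal library lay above every ventral one, and the means were 0.659 ± 0.105 and 0.393 ± 0.0699 (SD, n = 4 each), a log2 ratio of -0.74. With the FPKM filter removed, its adjusted p in limma was 0.242. The summed FPKM of 8 microglial markers ranged from 61.9 to 69.5 in dorsal and from 67.8 to 81.4 in ventral libraries. The sums overlapped, 5 of the 8 markers had a higher and 3 a lower ventral mean, and their part in the values of Kcnk13 was not tested. Kcnk12 (ENSMUSG00000050138, chr17:87745837-87797994), which encodes THIK2, was at 0.746, 0.865, 0.599 and 0.731 FPKM in D1, V1, D2 and V2 and at 1.02, 0.708, 0.579 and 0.424 in D3, V3, D4 and V4. The ventral libraries spread over and beyond the dorsal range, and the adjusted p without the filter was 0.883.

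An exact permutation test of each single member, two-sided on log2(FPKM + 1), can give no p below 0.0286 with 4 libraries against 4. Kcnk1, Kcnk4, Kcnk10 and Kcnk13 were at this smallest exact p. It is reached when the regions do not overlap, which held for 11.1% of all genes tested. It is therefore no support apart from the lack of overlap given above, and no adjustment over the members is given. The exact p was 0.0857 for Kcnk9, 0.114 for Kcnk2, 0.629 for Kcnk12 and 0.771 for Kcnk3.

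Ratios between members of one subfamily were compared because a ratio within a library does not depend on how libraries are scaled to each other. The log2 ratio of Kcnk4 to Kcnk10 was 0.92, 0.72, 0.99 and 0.86 in D1, V1, D2 and V2 and -0.39, -0.14, -0.78 and -0.75 in D3, V3, D4 and V4. TRAAK transcripts thus outnumbered TREK2 transcripts per length in all dorsal libraries and were fewer in all ventral ones. The mean ratio went from 1.83 to 0.698, a 2.63-fold difference between the regions. The ratio of Kcnk2 to Kcnk4 was 5.06 in dorsal (4.13 to 5.57) and 8.30 in ventral libraries (5.95 to 11.0). The ratio of Kcnk2 to Kcnk10 was 9.28 in dorsal (8.23 to 10.6) and 5.79 in ventral libraries (5.39 to 6.52). The regions did not overlap in any pair of these 3 genes, and the pairs share their genes. Kcnk4 and Kcnk10 each separated the regions on their own, in opposite directions. Separation of their ratio followed from this, so its test is no separate support. None of the 3 genes was called by limma over all genes tested. How often ratios of other gene pairs separate the regions was not computed. The ratio of Kcnk12 to Kcnk13 was 1.12 in dorsal (0.840 to 1.35) and 1.67 in ventral libraries (1.36 to 2.13), with both genes below the FPKM filter. Each of these 4 differences was at the smallest exact permutation p of 0.0286, or 0.0357 after Benjamini-Hochberg adjustment over the 5 pairs computed. Each of the 4 pairs holds a gene that separated the regions on its own (Kcnk4, Kcnk10 or Kcnk13). The p-values of these pairs are therefore no support apart from that separation. The fifth pair, Kcnk3 to Kcnk9, was at 0.121 in dorsal (0.0963 to 0.141) and 0.106 in ventral libraries (0.0912 to 0.126), with an exact permutation p of 0.286 before and after adjustment.

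**Figure D3:**
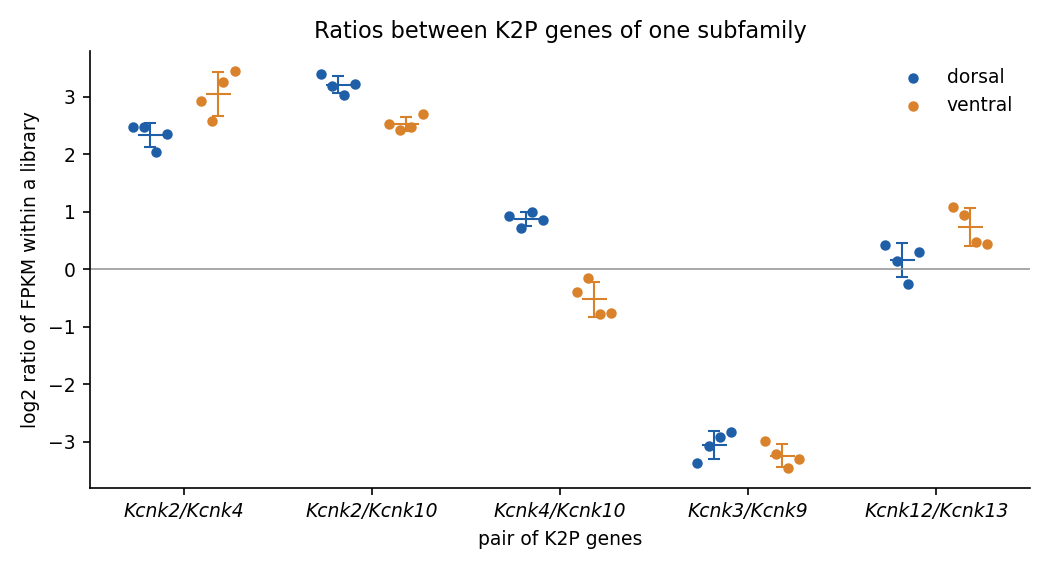
Log2 ratio of the FPKM of 2 K2P genes within each library, with 1 point per library, 4 dorsal (blue) and 4 ventral (orange), and the mean with its SD. The ratio of Kcnk4 to Kcnk10 lies above 0 in all dorsal and below 0 in all ventral libraries, and the ratio of Kcnk3 to Kcnk9 overlaps between the regions.

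A ratio across subfamilies, chosen after its values were seen and given without a test, was that of Kcnk9 to Kcnk2, the most abundant members after Kcnk1. It was 1.02, 0.828, 0.990 and 0.809 in D1, V1, D2 and V2 and 1.20, 1.22, 1.24 and 1.04 in D3, V3, D4 and V4. TASK3 transcripts exceeded TREK1 transcripts per length in 4 of 4 ventral libraries and in 1 of 4 dorsal libraries.

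The summed FPKM of the 14 K2P genes was 75.0 ± 1.20 in dorsal and 63.2 ± 3.91 in ventral MEC (SD, n = 4 each). Every dorsal library lay above every ventral one, and 11.1% of all single genes tested did not overlap between regions. The fall in the mean of Kcnk1, from 44.9 to 32.4 FPKM, was at least as large as that of the sum. The lower sum therefore describes Kcnk1 and not the other K2P genes. Kcnk1 made up 59.9% ± 1.55 of the dorsal and 51.1% ± 4.18 of the ventral sum (SD, n = 4 each). The share of Kcnk9 was 14.6% ± 1.73 in dorsal and 20.8% ± 2.27 in ventral libraries, and that of Kcnk10 was 1.73% ± 0.102 and 3.07% ± 0.310 (SD, n = 4 each). A share falls or rises with the other members as well as with its own gene.

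**Figure D4:**
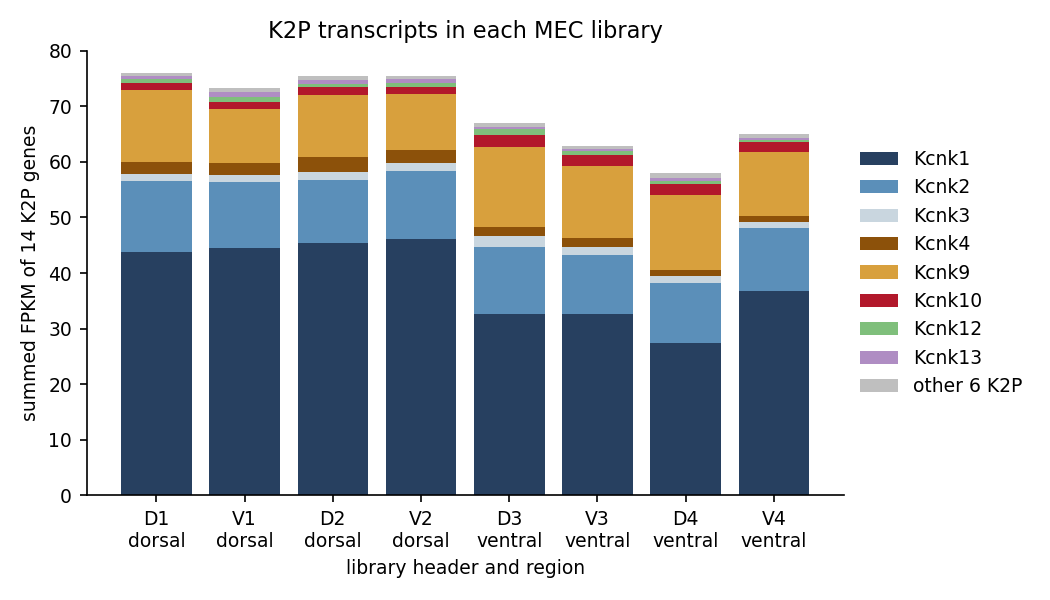
Summed FPKM of the 14 K2P genes in each library, stacked by gene, with the library header and the region below each bar. The dorsal bars lie between 73.3 and 76.0 and the ventral bars between 57.9 and 67.0, and Kcnk1 is the largest segment in all 8.

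The other 6 K2P genes, Kcnk5, Kcnk6, Kcnk7, Kcnk15, Kcnk16 and Kcnk18, were all marked by the authors as having too few alignments, and 0 of 6 were tested. The highest of them was Kcnk6, which encodes TWIK2, with a mean FPKM of 0.416 in dorsal and 0.498 in ventral MEC. Kcnk16 was listed at 0 in all 8 libraries.

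Genes that act with or on K2P channels were taken from lists based on textbook knowledge. Of 14 symbols for partners and regulators of trafficking, scaffolding and lipid supply, 13 were in the table and tested, and 0 were called by limma. Among all genes tested, 2.15% were D>V and 1.45% were V>D. At an unadjusted p under 0.05 there were 2 of the 13, beside 2191 of all 13674 genes tested. The member of this list with the largest log2 ratio in size was Stx8, which encodes an endosomal syntaxin that binds TASK1, at 30.0 ± 1.32 FPKM in dorsal and 24.3 ± 2.73 in ventral MEC (SD, n = 4 each), a log2 ratio of -0.30 with an adjusted p of 0.0856. It was D>V without the ventral library V3 (adjusted p = 0.0322) and with sample quality weights (0.0436). The median log2 difference of the list was 0.05.

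Gq-coupled receptors close TASK and TREK channels through phospholipase C and its lipid products. Of 13 genes listed for this pathway, 10 were tested, of which 1 was D>V and 1 was V>D, where 2.15% and 1.45% of all genes tested were. At an unadjusted p under 0.05 there were 4 of the 10, beside 2191 of all 13674 genes tested. Regions did not overlap for 4, compared with 11.1% of all genes tested, and the median log2 difference was -0.02. Prkcb, which encodes a protein kinase C that diacylglycerol activates, fell from 218 ± 3.89 FPKM in dorsal to 179 ± 3.31 in ventral MEC (SD, n = 4 each), a log2 ratio of -0.29 with an adjusted p of 0.0182 in limma. This call was lost without library D1 (adjusted p = 0.0571), V1 (0.0738), D2 (0.0549) or D3 (0.0687), and after rescaling the libraries to one total (0.121). Dgkg, which encodes a diacylglycerol kinase that removes this lipid, rose from 17.9 ± 1.82 FPKM in dorsal to 31.6 ± 3.39 in ventral MEC (SD, n = 4 each), a log2 ratio of 0.82 with an adjusted p of 0.00162. Its lowest ventral library, at 28.6 FPKM, lay above its highest dorsal library, at 20.5 FPKM.

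The sodium leak channel NALCN carries the opposing background current. None of the 4 genes of its complex, Nalcn, Unc79, Unc80 and Fam155a, was called by limma. Of all genes tested, 2.15% were D>V and 1.45% were V>D. At an unadjusted p under 0.05 in limma there were 0 of the 4, beside 2191 of all 13674 genes tested. With 4 genes, counts of 0 lie near these shares and are no result about the complex. The median log2 difference of the list was 0.02. The largest ratio in size was that of Fam155a, an auxiliary subunit, with a log2 ratio of -0.11 (adjusted p = 0.742). Nalcn itself was at 17.5 ± 0.444 FPKM in dorsal and 18.7 ± 0.632 in ventral MEC (SD, n = 4 each), with every ventral library (18.1 to 19.6) above every dorsal one (17.0 to 17.9). Such a lack of overlap held for 11.1% of all genes tested. For Nalcn the regions overlapped after rescaling the libraries to one total. The 95% interval of the limma difference of Nalcn ran from -0.03 to 0.22, with an adjusted p of 0.460.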

How the data were processed

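The authors aligned paired-end fragments with TopHat2 2.0.8, with the GRCm38 genome and genes of Ensembl 73, after base calling with CASAVA 1.8, and deposited the FPKM that Cuffdiff computed per gene, summed over transcripts and scaled between libraries. Regional mean FPKM in the authors' comparison table served to assign libraries to regions. Its fold changes and p-values were not used, nor were 4 columns of estimated fragments, whose rows could not be matched to samples, so no total depth is given.

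log2(FPKM + 1) was compared between 4 dorsal and 4 ventral libraries with limma 3.58.1 (R 4.3.3, mean-variance trend) over all 13674 genes tested, with a threshold of 0.263 on the log2 ratio of mean FPKM, which is 20%. On this scale a change is understated where FPKM is low. The script was tested on simulated data. Single members and ratios were compared by exact permutation tests (Python 3.11.15, NumPy 2.4.6, SciPy 1.17.1, pandas 2.3.3), and plots used matplotlib 3.10.9. The members and the gene lists were chosen with earlier results of these data known. Named genes are the 8 members, called genes of the other lists, the gene with the largest ratio where none was called, and the 3 genes most like each called member. Nalcn was added to these after its values were seen. Gene starts were moved by 1 base to count from 1. Alternatives covered the added constant, the FPKM filter, scaling, weights, the ratio rule, the regions of the libraries and leaving out each library.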

Additional observations from a re-analysis of the deposited data

How the results depend on the processing

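The number of members called was 2 in place of 1 without the FPKM filter, after quantile normalization and with sample quality weights, where Kcnk4 joined Kcnk1, and between 1 and 2 when 1 library was left out. It was 0 with the regions of the headers and 0 in the 4 libraries with one region, where the adjusted p of Kcnk1 was 0.398. With the headers' regions, members at the smallest exact p went from 4 to 0, and so did the ratios that passed. Directions then reversed to log2 ratios of 0.10 for Kcnk1, -0.16 for Kcnk3, -0.23 for Kcnk9 and -0.075 for Kcnk10, to differences in log2(FPKM + 1) of 0.11, -0.090, -0.22 and -0.040 for the same 4 genes, and to differences in log2 ratio of 0.027 for Kcnk2 to Kcnk10 and 0.085 for Kcnk3 to Kcnk9. Kcnk3 also reversed in the 4 libraries with one region (-0.079) and without D3 (-0.062), its ratio without 1 library lying between -0.062 and 0.16. The ratio of Kcnk12 to Kcnk13 no longer passed with 0.1 added to both values (exact permutation, p = 0.0714 after adjustment over the 5 pairs). Over all genes, D>V calls lay between 157 and 341 and V>D calls between 91 and 191 without 1 library. The partners list had between 0 and 1 call, and the Gq list between 1 and 2, when 1 library was left out, and the Gq list had 1 call after rescaling to one total. The causes were not tested. Of the counts of calls recomputed under an alternative, 49 stayed within 1.5 times and 14 moved. Of the values of single genes or ratios, 220 kept their direction and side of the threshold or, where untested, stayed within the spread between libraries. Another 12 reversed, 7 became weaker and 4 stronger. Some could not change, such as counts for the other K2P genes, none of which was tested. Ratios of mean FPKM likewise do not depend on the added constant or the weights. With 1 library left out, the exact tests cannot pass, since their smallest p is then 0.0571, and these were compared as values. No paired analysis was possible because the pool of mice behind each library is not given, and the header numbers split by region under the assignment used. Depth is known only in relative terms, so no counting error is given for the low members Kcnk3, Kcnk4, Kcnk10, Kcnk12 and Kcnk13.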

Other observations

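Marker lists of other cell types and regions were read in the same libraries, beside those of oligodendrocytes, their precursors, astrocytes, microglia and endothelial cells. Among 6 markers of GABAergic neurons, Pvalb was D>V (log2 ratio -1.24) and Sst was V>D (1.01), while the pan-GABAergic genes Gad1 and Gad2 were not called (-0.15 and 0.14). Among 3 markers of entorhinal layer II, Wfs1 was D>V (-0.54) and Calb1 was V>D (0.78), and Reln was not called (0.18). Of 5 markers of glutamatergic neurons, only Slc17a6 was called, as D>V (-0.58). Of 5 leptomeningeal markers, 4 were tested and Dcn was V>D (0.99). None of 3 mural markers, and neither of the single tested markers of choroid plexus (Kl) and dentate gyrus (Prox1), was called by limma. The part of these differences in those of the K2P members was not tested.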
